A study of Mus musculus with 2 samples.

Results

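Cytosolic ribosomal protein genes encode the proteins that assemble with ribosomal RNA into the small and large subunits of the ribosome. They were chosen by symbol (Rps, Rpl, Rplp0 to Rplp2 and Rpsa) and by a minimum of 100 unique molecular identifiers (UMIs, counted transcript molecules) over all kept cells. The rule gave 81 genes of the 31053 in the count tables, of which 32 have small-subunit and 49 large-subunit symbols. A symbol alone does not show that the protein is part of the finished ribosome. Rpl3l and Rpl10l matched by symbol and had 0 UMIs in either library, so they were left out.

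The data were single-cell 3′ RNA-seq counts from back skin of C57BL/6 mice (the strain in the labels) at postnatal day 53, with 1 library from a control mouse and 1 from a miR-205 inducible mouse. Both mice carried a K14-H2BGFP allele, which marks keratinocyte nuclei. The inducible mouse also carried Krt14-rtTA, which acts in Krt14-expressing epithelium, and a pTRE2-miR-205 transgene made in FVB mice. Both mice had doxycycline for 4 days from day 49 per the extraction protocol, although another label calls the control untreated. Sorted epidermal, follicular and dermal cells were pooled at 3 to 5 to 2, so the sort and not the tissue set how many cells each population had. After filtering, 3936 control and 3628 induced cells remained with medians of 12198.5 and 11752.5 UMIs per cell, and 11 barcodes occurred in both libraries. No row of the tables measured the induced miRNA, so the induction itself was not checked here. With 1 mouse per group no test between the groups was possible. Intervals below are exact 95% intervals for counting error only and say nothing of the spread between mice.

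Ribosomal protein mRNAs belong to the TOP class, mRNAs that begin with a C followed by a run of pyrimidines (5′ terminal oligopyrimidine). Their translation is controlled together by mTOR through the repressor LARP1, and the ribosome content of a cell is tied to its growth. In hair follicles, quiescent bulge stem cells and the hair germ below them differ in how soon they enter growth, and the study compared these compartments under miR-205. The RefSeq promoter table (build GRCm38.p6) held an annotated start for 61 of the 81 genes, of which 37 (60.7%) had a C followed by at least 4 pyrimidines starting within 10 bases of a start. Such a run was found in 34.4% of all 27025 genes with a promoter there. The share was 49.2% against 14.1% when at least 6 pyrimidines were asked for. The run was searched on the gene's strand only. The windows below hold 30 bases around the annotated start, which is their base 11. They are printed 5′ to 3′ on the gene's strand with the pyrimidine run in capitals, for genes whose values are given further on.
Rps6 (chr4:86857348-86857377, minus strand): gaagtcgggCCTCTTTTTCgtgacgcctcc
Rpl38 (chr11:114668570-114668599, plus strand): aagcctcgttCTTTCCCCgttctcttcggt
Rpl35 (chr2:39005112-39005141, minus strand): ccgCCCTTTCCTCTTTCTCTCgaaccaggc
Rps27 (chr3:90213629-90213658, minus strand): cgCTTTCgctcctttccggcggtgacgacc
Rpl22l1 (chr3:28805498-28805527, plus strand): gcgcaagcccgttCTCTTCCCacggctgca
Rpl39l (chr16:10170218-10170247, plus strand): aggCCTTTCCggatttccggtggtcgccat
In Rpl38 the run began at the annotated first base, and in Rpl35 it was 18 bases long. Rplp0, Rpsa and Rpl7l1 had no such run in this window, which says only that these letters are not there. Rpl39l, the member with the fewest UMIs, had a run as well.

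The induced miRNA itself, mmu-miR-205-5p, is shown because its seed (bases 2 to 8, in capitals) was searched for in the members' 3′ untranslated regions. It lies at chr1:193507503-193507524 on the minus strand of GRCm38.p6.
mmu-miR-205-5p: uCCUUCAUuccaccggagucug
The 7-base complement of the seed was present in annotated 3′ untranslated regions of 4 of 79 members (5.06%), namely Rpl15, Rpl7l1, Rps15a and Rps20, against 11.3% of 20007 protein-coding genes. The members' 3′ untranslated regions were short, with a median of 91 nucleotides for the longest annotated one of each gene. A match is a description of the sequence and not evidence of targeting.

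The 81 genes together made up 22.2% of all UMIs in the control library (11249110 of 50565114, interval 22.24% to 22.26%) and 22.4% in the induced library (10153518 of 45364442, interval 22.37% to 22.39%). The log2 ratio of the shares, induced over control, was 0.0087 (0.0075 to 0.010). It was -0.032 when the share was averaged over cells instead of summed, so its sign depended on how cells were weighted. Of the 100 genes with the most UMIs, 60 were members. Among the most abundant were Rpl13 (5577 in the control and 5651 in induced cells, as UMIs per 1e6 UMIs, CPM), the stalk protein Rplp1 (5352 and 5491 CPM), Rps24 (5018 and 5038 CPM) and Rpl41 (4704 and 4888 CPM), one of the shortest known eukaryotic proteins. Because 3′ counting records each molecule once, these CPM levels were not divided by transcript length. The least abundant were Rpl31 (617 and 623 CPM), Rpl13a (523 and 569 CPM), Rps27l (423 and 389 CPM), Rpl7l1 (80.1 and 72.2 CPM) and Rpl39l (1.76 and 3.48 CPM). In both libraries 73 members exceeded 1000 CPM.

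Cells were grouped into 26 clusters without the members or the other translation genes among the clustering genes. Clusters were named from marker genes. Clusters 2 and 19 were stem cell-like cells of the hair follicle (HF-SC-like), with Cd34 and Krt24 among their markers. Cluster 12 had the highest mean over the hair germ markers and was led by Col4a4, Hhip, Pthlh and Wif1, but did not meet the naming rule and is called by its number. Cluster 16 met the rule for hair germ-like cells, with Lgr5 among its leading genes. In a bulk sum of this kind fewer cells of a type and less RNA per cell cannot be told apart, so comparisons were also made within clusters. The values given below for all kept cells carry this limit.

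**Figure D1:**
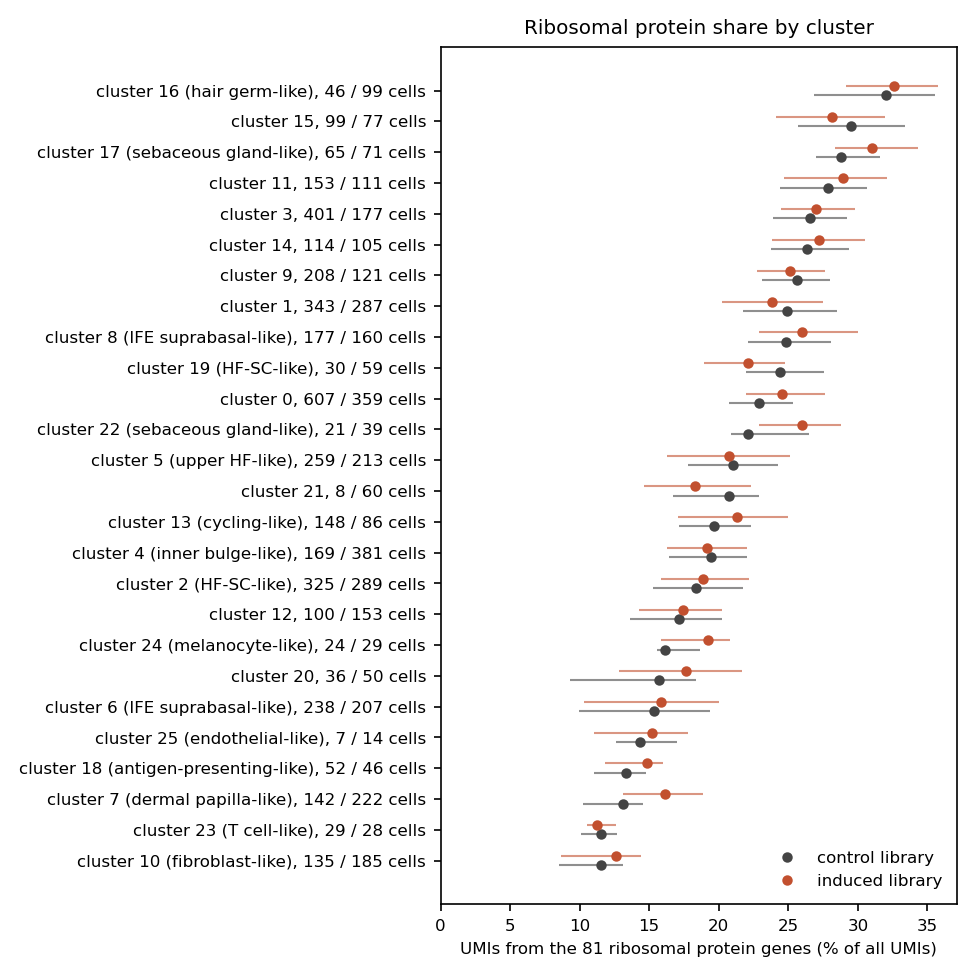
Share of UMIs from the 81 ribosomal protein genes in each of 26 clusters, as percent of all UMIs, for the control library (grey) and the induced library (red). Points are the share in the summed UMIs, lines the interquartile range over cells, and the numbers after each name the control and induced cells. Hair germ-like cells lie at the top near 32% in both libraries, and fibroblast-like and T cell-like cells at the bottom near 11% to 13%.

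The ribosomal protein share differed between skin cell populations far more than between the libraries. Hair germ-like cells, as named here (cluster 16), had the highest share in both, 32.0% (31.87% to 32.16%) of UMIs in 46 control cells and 32.6% (32.52% to 32.70%) in 99 induced cells. Cluster 12, with the higher mean over the hair germ markers, was far lower, at 17.2% and 17.4%. The lowest shares were found in fibroblast-like cells of the control (11.5%, 135 cells) and T cell-like cells of the induced library (11.2%, 28 cells). Over clusters with at least 20 cells in the library, the highest share was 2.78 times the lowest in the control. In the induced library it was 2.90 times the lowest. Among cells under 5% mitochondrial UMIs fewer clusters were compared, and the unnamed cluster 11 was the highest of them in both libraries (27.8% and 29.3%). The order of the clusters was close between the libraries, with Spearman's rho 0.963 over 26 clusters, which share the clustering, and 21 clusters moved by at most 2 ranks. Across clusters the rho between the share and the median UMIs per cell was 0.304 in the control and 0.536 in the induced library. Within clusters the median rho between a cell's share and its UMIs was -0.055 in the control and 0.021 in the induced library. Single clusters ran from -0.31 to 0.52 in the control and from -0.22 to 0.48 in the induced library. Hair germ-like cells had 0.39 and 0.26, and sebaceous gland-like cluster 17 had -0.26 and -0.22.

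Cells with the same name did not always have the same share. The suprabasal interfollicular epidermis (IFE)-like cells, which differentiate above the basal layer, comprised cluster 6 at 15.3% control and 15.8% induced, and cluster 8 at 24.8% and 26.0%. The HF-SC-like clusters also differed, with 18.3% and 18.8% in cluster 2 and 24.4% and 22.1% in the smaller cluster 19. Sebaceous gland-like cells, the lipid-producing cells of the follicle, were near the top in cluster 17 (28.8% control, 31.0% induced).

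Between the libraries, the share changed little in the compartments the study followed. HF-SC-like cells had a share of 18.7% in the control (355 cells) and 19.3% in the induced library (348 cells), and the log2 ratio was 0.044 (0.040 to 0.049). The 2 clusters of this name moved in opposite directions, at 0.040 (0.034 to 0.045) in cluster 2 and -0.14 (-0.16 to -0.12) in cluster 19. Cluster 19, with the higher share in both libraries, held 30 control and 59 induced cells. The pooled ratio of 0.044 lay above that of either cluster, so it also carries this change in cell mix. It does not measure a change within either cluster, and other pooled HF-SC-like values carry the same limit. For cluster 12 the shares were 17.2% (100 control cells) and 17.4% (153 induced cells), with the log2 ratio at 0.019 (0.0092 to 0.028). In the hair germ-like cells the log2 ratio was 0.026 (0.017 to 0.036). Cluster 11, unnamed and led by Tagln and Acta2 but rich in the keratinocyte gene Krt14, stood at 27.8% and 28.9%. In 18 of 26 clusters the share was higher in the induced library, and in 17 of the 24 clusters with at least 20 cells in each library.

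The largest difference in share was in dermal papilla-like cells, the mesenchymal cells at the follicle base that signal to the hair germ. Their share was 13.1% (13.07% to 13.23%) over 142 cells of the control and 16.1% (16.05% to 16.18%) over 222 of the induced library, which gave a log2 ratio of 0.29 (0.28 to 0.30). Several other measures moved with it, and their part in the result was not tested. Cells of this type were deeper in the induced library, with medians of 4503 and 5486.5 UMIs. The summed level of the 10 dermal papilla markers, all 10 detected, was 4734 CPM in the control and 2714 CPM in the induced cells. Within that list the retinoid-binding protein gene Crabp1 stood at 3117 and 1684 CPM and the Wnt inhibitor gene Notum at 1056 and 456 CPM. The 8 basal IFE markers summed to 5922 and 6716 CPM, although Krt14 itself was at 1023 and 419 CPM. Among cells with at least 5000 UMIs the log2 ratio of the share was 0.27. Melanocyte-like cells (log2 ratio of share 0.26, 24 control and 29 induced cells) and sebaceous gland-like cluster 22 (0.23, 21 and 39 cells) had the next largest differences. Fibroblast-like cells went from 11.5% to 12.6% (log2 ratio 0.13). Over both sebaceous gland-like clusters the ratio of 0.11 became -0.15 among cells under 5% mitochondrial UMIs.

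**Figure D2:**
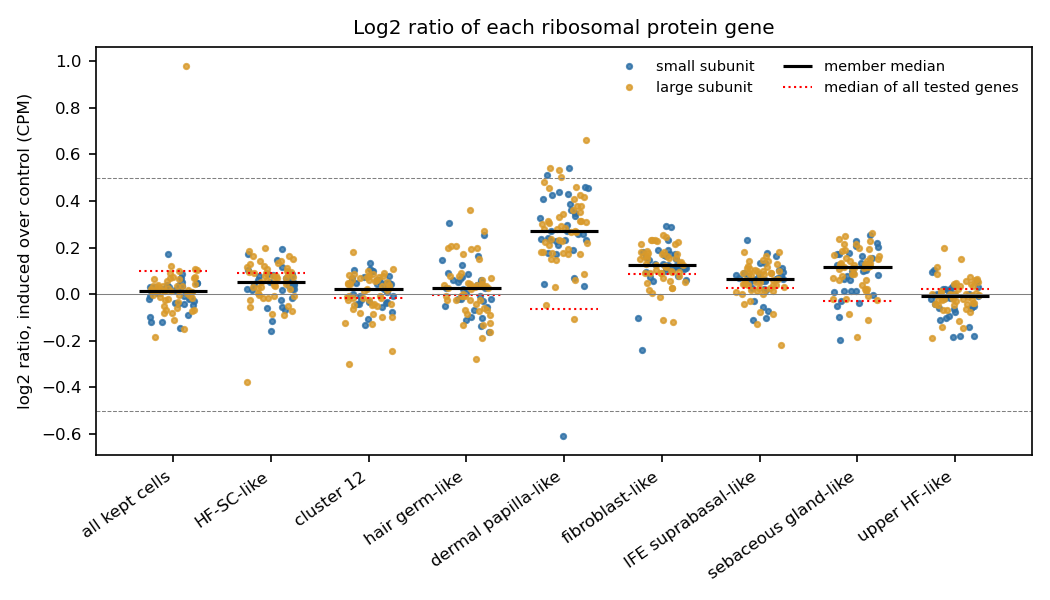
Log2 ratio of CPM, induced over control, for each member with at least 20 UMIs (blue small subunit, orange large subunit) in 9 populations, with the member median (black) and the median of all tested genes (red, dotted). Dashed lines mark the call at a log2 ratio of 0.5 in either direction. Member medians lie close to 0 except in dermal papilla-like (0.27), fibroblast-like (0.13) and sebaceous gland-like cells (0.12), and under median-of-ratios scaling the medians of all kept cells and HF-SC-like cells fall below 0.

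A gene was called when its log2 ratio, on the scale of UMIs plus 0.5 over the total, reached 0.5 in either direction. In all kept cells 1 of 81 members was called higher (Rpl39l) and 0 lower, where 18.4% of 14484 tested genes were called higher and 3.74% lower. In HF-SC-like cells 0 of 80 tested members were called in either direction (background 17.3% higher, 8.83% lower of 9571 genes). In cluster 12 it was again 0 of 80 (background 12.8% higher, 12.4% lower of 6865 genes). High UMI numbers alone narrow the spread of such ratios, and among genes with at least 1000 UMIs in HF-SC-like cells 66.6% lay within 0.25 of 0, compared with 98.8% of the members (79 of 80). In all kept cells the figures were 77.2% of such genes and 98.8% of the members. Most members held well over that minimum of UMIs, so the sets were not matched for UMI numbers. The contrast therefore cannot separate the family from its abundance.

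The median member log2 ratio was 0.014 in all kept cells (48 higher, 33 lower), where median-of-ratios scaling gave -0.085 (5 higher, 76 lower). It was 0.053 in HF-SC-like cells (61 higher, 19 lower), where that scaling gave -0.037 (23 higher, 57 lower). In cluster 12 it was 0.023 (46 higher, 34 lower) and 0.031 (47 higher, 33 lower) with that scaling. The flips follow from the median of all tested genes, which was 0.099 in all kept cells and 0.090 in HF-SC-like cells, so the members as a group lay below that median there. Among genes with at least 1000 UMIs the medians were 0.021 and -0.0078. The direction of the family in the first 2 populations was therefore set by the scaling, while the small size of its differences was not. The subunit medians lay close together, at 0.0081 (small) and 0.016 (large) in all kept cells and 0.047 and 0.069 in HF-SC-like cells. The small subunit supplied 44.3% of the member UMIs in the control and 44.2% in the induced library.

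In all kept cells the lowest members were Rpl35 (104916 UMIs in the control and 82950 in the induced library, log2 ratio -0.18), Rpl7l1 (4048 and 3275, -0.15), Rps29 (204869 and 166020, -0.15), Rps27l (21401 and 17663, -0.12) and Rps27 (190064 and 156946, -0.12). The highest were Rpl39l, described below, the laminin receptor gene Rpsa (166756 and 168561 UMIs, log2 ratio 0.17), Rpl13a (26422 and 25790, 0.12), Rpl10a (98357 and 95244, 0.11) and Rpl3 (102845 and 99221, 0.10), which forms part of the peptidyl transferase region. Each of these counting intervals left out 0. These ratios are small, and none but that of Rpl39l reached the call.

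In HF-SC-like cells the lowest member was Rpl22l1, the paralog of Rpl22, at 510 CPM in the control and 393 CPM in the induced cells (1780 and 1359 UMIs, log2 ratio -0.38, -0.48 to -0.28). In cluster 12 it was lowest as well, at 644 and 523 CPM (-0.30, -0.47 to -0.13), and in hair germ-like cells it was on the other side at 810 and 938 CPM (0.21, 0.030 to 0.39). Rpl22 itself had 5134 and 5499 UMIs in HF-SC-like cells, and Rpl22l1 made up 25.7% of the pair's UMIs in the control and 19.8% in the induced cells. Within them, cluster 2 had 26.1% and 19.7%, and cluster 19 had 21.3% and 20.3%. Antigen-presenting-like (34.4% and 26.4%), dermal papilla-like (33.1% and 27.3%) and inner bulge-like cells (25.5% and 21.9%) were also lower in the induced library. Upper HF-like, suprabasal IFE-like, fibroblast-like, sebaceous gland-like and hair germ-like cells were higher there. Other low members in HF-SC-like cells were Rps29 (-0.16), Rps27 (-0.12), Rpl38 (-0.090) and Rpl35 (-0.087). Among the highest there were Rplp0 (2754 and 3157 CPM, 0.20), the P-stalk base to which Rplp1 and Rplp2 bind, Rps2 (0.19), Rpl11 (2029 and 2304 CPM, 0.18), and Rpl10a (0.17). Rpl11 and Rpl5 form the particle that binds and inhibits the p53 ligase Mdm2, and Rpl5 did not follow Rpl11, at 1645 and 1589 CPM (-0.050, -0.10 to 0.0037). Rps6, the substrate of S6 kinase, stood at 1298 and 1376 CPM (0.084, 0.025 to 0.14). The ubiquitin fusion gene Rps27a was at 2812 and 2918 CPM (0.054), Rpl23 at 3899 and 4011 CPM (0.041), and the stalk genes Rplp1 and Rplp2 at 4213 and 4497 CPM (0.094) and at 1910 and 1838 CPM (-0.055).

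In cluster 12 members with low ratios besides Rpl22l1 were Rpl35 (1518 and 1281 CPM, -0.24), Rpl36 (-0.13) and Rpl38 (-0.12). Among the highest were Rpl3 (1624 and 1841 CPM, 0.18), Rps3 (0.13), Rpl7 (0.11) and Rps19 (0.10), the gene mutated in many patients with Diamond-Blackfan anaemia.

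In dermal papilla-like cells 78 of 81 members had a ratio above 0 and 3 below, and 6 were called higher and 1 lower (background 12.8% higher and 17.4% lower of 7017 genes). Those called higher included Rpl13a, Rpl17, Rplp0, Rps4x and Rpl7. Rpl13a, a subunit of the inhibitor complex that silences inflammatory mRNAs, stood at 265 and 420 CPM (0.66, 0.41 to 0.92). The member called lower was Rps27l, a p53 target gene, at 261 and 171 CPM (174 and 213 UMIs, -0.61, -0.90 to -0.31). In the smaller set of melanocyte-like cells (24 and 29 cells) the member median was 0.29, with 67 members above 0 and 12 below, and 11 of 79 were called higher and 0 lower (background 21.5% higher and 20.6% lower of 2080 genes). The size depended on how cells were weighted and chosen, since the log2 ratio of the summed share in melanocyte-like cells was 0.26, but 0.15 when averaged over cells and 0.82 among cells with at least 5000 UMIs.

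The same genes stood out in one cluster after another. Among 17 clusters with at least 50 cells in each library, Rpl35, Rps29, Rpl38, Rps27, Rpl36, Rpl39 and Rps25 were below the member median in 17 of 17. Rplp0, Rps7 and Rpl32 were among those above it in 17 of 17. Rplp0, Rpsa, Rpl10a, Rpl3, Rpl7a and Rpl7 had a ratio above 0 in 17 of 17 when scaled to total UMIs. These clusters come from the same 2 libraries, so the recurrence is not 17 independent observations.

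Members with longer coding sequences tended to have higher ratios, a relation looked at after the values were seen. Coding length, taken from the GENCODE M1 annotation for 79 of the 81 members, ran from 156 nucleotides in Rpl39 to 1260 in Rpl4. Rpl24 and Rpl41 had no usable length and were left out, although Rpl41 encodes one of the shortest proteins. The ratio of Rpl41 was below the member median in HF-SC-like cells (0.0040) and the highest of all members in hair germ-like cells (0.36). The relation therefore does not cover this short member. Across 79 members in all kept cells Spearman's rho between coding length and log2 ratio was 0.428, but Pearson's r with log2 length was 0.0054. Without Rpl39l, a short gene with few UMIs and the highest ratio, rho was 0.483 and r 0.518 over 78 members. In HF-SC-like cells, where Rpl39l was too low to be included, rho was 0.365 and r 0.385 over 78 members. The 38 shorter members had a median log2 ratio of -0.0081 and the 41 longer ones 0.033 in all kept cells. The rho was above 0 in 25 of 26 clusters, with the highest value of 0.608 in upper HF-like cells and the lowest of -0.038 in antigen-presenting-like cells. Among the 6784 other genes with at least 1000 UMIs and a length, rho was -0.045 in all kept cells. Genes are not independent replicates, and all points share the same pair of libraries.

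**Figure D3:**
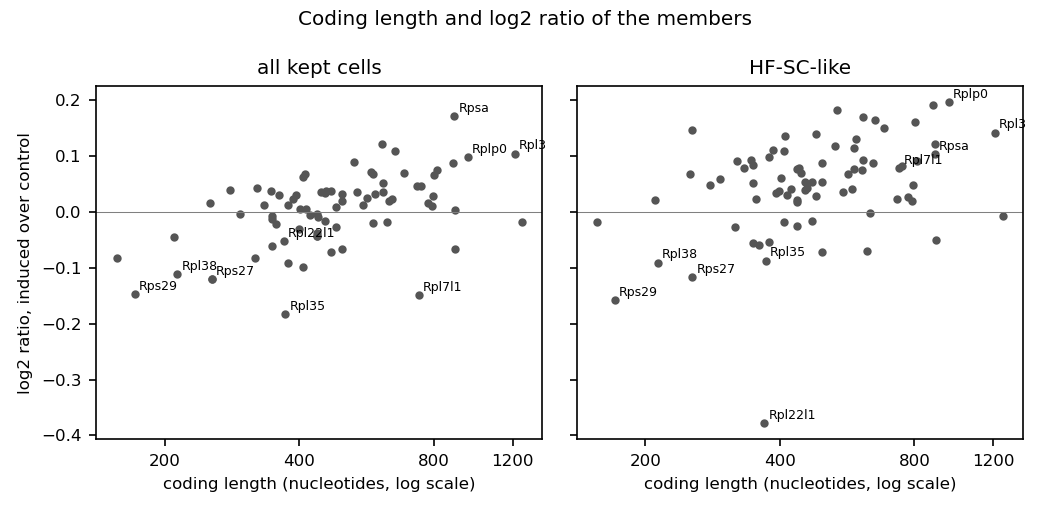
Log2 ratio, induced over control, of each member against its coding length in nucleotides (log axis), in all kept cells and HF-SC-like cells. Rpl39l is left out, as are Rpl24 and Rpl41, which had no usable length. Rps29, Rpl38 and Rps27 lie at the lower left and Rplp0, Rpsa and Rpl3 at the upper right, with rho 0.483 and 0.365 over the 78 points of each panel.

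The composition of the ribosomal protein pool, each member as a share of the summed member UMIs, was compared over the same 17 clusters. For 47 of 81 members the pool share varied by less than 0.5 on the log2 scale from the lowest to the highest cluster in both libraries. Among the narrowest were Rps10 (0.17 in the control and 0.24 in the induced library), Rpl23 (0.21 and 0.18), Rpl27a (0.26 and 0.19) and Rps3a1 (0.24 and 0.22). Only 3 members varied by 1 or more in both libraries, namely Rpl39l, Rpl7l1 (2.1 and 1.9) and Rps27l (1.0 and 1.3), followed by Rpl10 (0.98 and 0.98) and Rpl22l1 (0.94 and 1.0). The profile over clusters recurred between the libraries, with a median Pearson r of 0.909 over the members, which share the cluster labels.

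The highest and lowest values in this paragraph are among clusters with at least 50 cells in each library. Rpl10, on the X chromosome, had its highest pool share there in dermal papilla-like cells. This was 0.69 above its all-cell value in the control and 0.66 in the induced library. T cell-like cells, too few to be ranked, had more (1.99% and 2.01% of the pool, against 1.78% and 1.76%). A pseudogene row, Rpl10-ps3, that held 5.95% of the pair's UMIs was left out. Rpl38, which in mouse development is required for translation of Hox mRNAs, was highest in fibroblast-like cells (0.57 and 0.44). Rplp0 was highest in IFE suprabasal-like cluster 8 (0.39 and 0.41) and lowest in cluster 12 (-0.40 and -0.46). Among the ranked clusters Rps27l was highest in IFE suprabasal-like cluster 6 (0.54 and 0.51) and lowest in cluster 11 (-0.47 and -0.77). Hair germ-like cells (46 in the control), cluster 20 (36) and cluster 22 (21) were too few to be ranked.

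**Figure D4:**
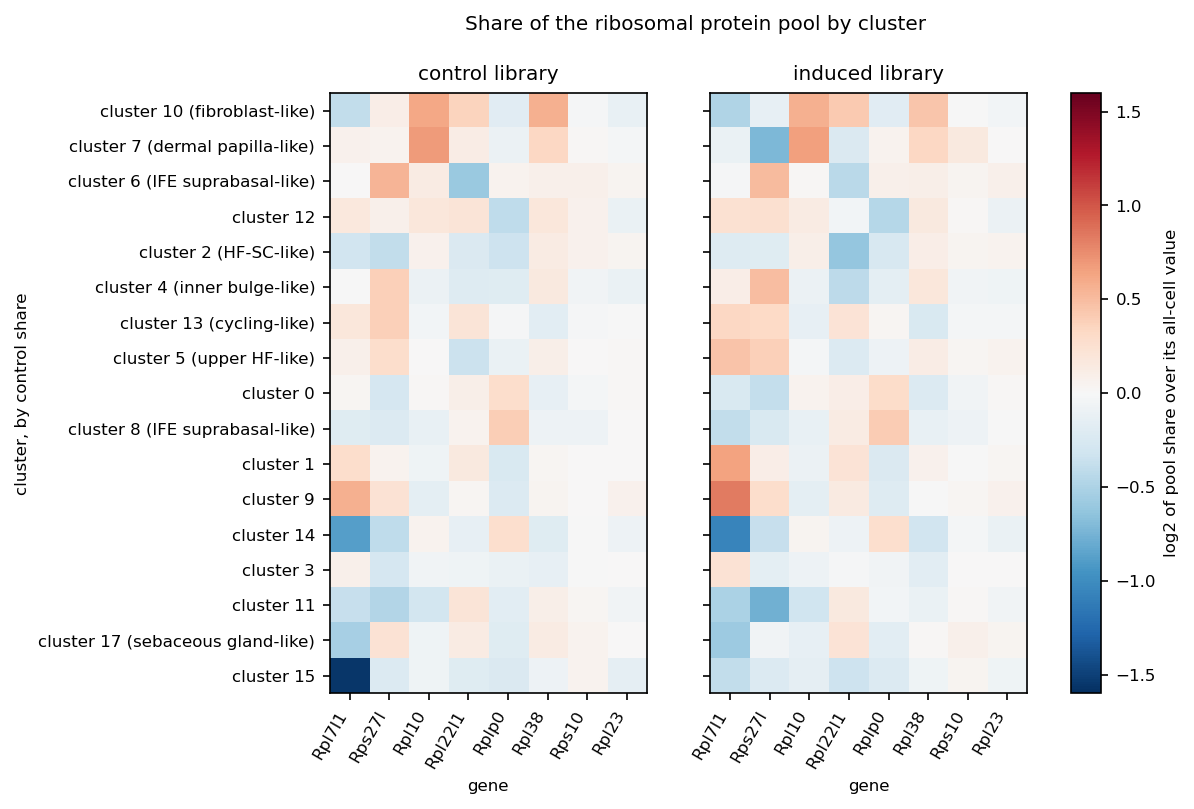
Log2 of each gene's share of the ribosomal protein pool over its value in all kept cells, for 8 members (columns) in the 17 clusters with at least 50 cells per library (rows, ordered by control share), in both libraries. The first 6 genes vary most apart from Rpl39l, and Rps10 and Rpl23 on the right stay near 0 throughout.

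Several of the variable members are paralogs of a core protein. Rpl39l is identical to Rpl39 in 48 of 51 residues and is best known from the testis. It was counted 89 times in the control and 158 times in the induced library, of which fibroblast-like cells supplied 65 and 102 UMIs and dermal papilla-like cells 19 and 42. Fibroblast-like cells with a Rpl39l UMI were 31.1% (23.4% to 39.6%) of 135 control and 38.4% (31.3% to 45.8%) of 185 induced cells, at median depths of 10531 and 10178 UMIs. In HF-SC-like cells it was 0 of 355 control cells and 2 of 348 induced cells. At 3 counts, the 0 allows up to 0.845% of cells with a UMI, which does not limit how many cells express so rare an mRNA. Inner bulge-like and upper HF-like cells had 0 UMIs in both libraries. The ratio of Rpl39l over all kept cells was 0.98 (0.60 to 1.4). Within fibroblast-like cells it was 0.25 (-0.21 to 0.73) and within dermal papilla-like cells 0.22 (-0.57 to 1.1), so it was called in neither, and both intervals included 0. The induced library held more cells of both mesenchymal types, with 185 against 135 fibroblast-like and 222 against 142 dermal papilla-like cells. Even there Rpl39l was 1.97% or less of the UMIs of the Rpl39 pair.

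Rps27l is identical to Rps27 in 81 of 84 residues, and its reads could in part be shared with the close copy. It made up 10.1% of the pair's UMIs in both libraries. The share was lowest in hair germ-like cells (3.49% control, 3.76% induced) and high in sebaceous gland-like (15.2% and 13.98%) and cycling-like cells (14.1% and 13.4%). Higher shares were found in the unnamed cluster 20 (31.4% and 22.3%, 36 and 50 cells). Sebaceous gland-like cluster 22 alone had 22.0% and 20.5% (21 and 39 cells). In dermal papilla-like cells it was 9.35% in the control and 5.31% in the induced library. Rpl7l1, which has 110 identical residues aligned with the 270 of Rpl7, made up 3.29% and 2.83% of its pair over all cells. Among named populations with at least 20 cells per library, its share was highest in antigen-presenting-like cells (8.70% and 5.10%) and lowest in hair germ-like cells (1.596% and 1.34%). Rpl36al and Rpl36a encode identical proteins of 106 residues. Rpl36al, which the symbol rule did not take, supplied 36.1% and 34.3% of that pair, and 17.2% and 19.3% in hair germ-like cells.

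Other genes of the translation machinery were counted from lists. Ribosomal proteins with other symbols also lay near 0 in all kept cells, including Fau (3199 and 3223 CPM, 0.011), Rack1 (1978 and 2037 CPM, 0.043) and Rpl36al (791 and 754 CPM, -0.070). Of 16 elongation factor and other TOP-mRNA genes, 14 had a ratio above 0 and 2 below in all kept cells (median 0.073), although with median-of-ratios scaling it was 7 above and 9 below. In HF-SC-like cells the split was again 14 and 2 (median 0.18), and 12 and 4 with that scaling. Eef2, which moves the ribosome along the mRNA, stood at 1187 and 1530 CPM in HF-SC-like cells (0.37, 0.31 to 0.43). None of the 16 was called in either population (background 18.4% higher and 3.74% lower in all kept cells, 17.3% and 8.83% in HF-SC-like cells). Across clusters the summed share of this list followed that of the members, with rho 0.923 in the control and 0.944 in the induced library.

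**Figure D5:**
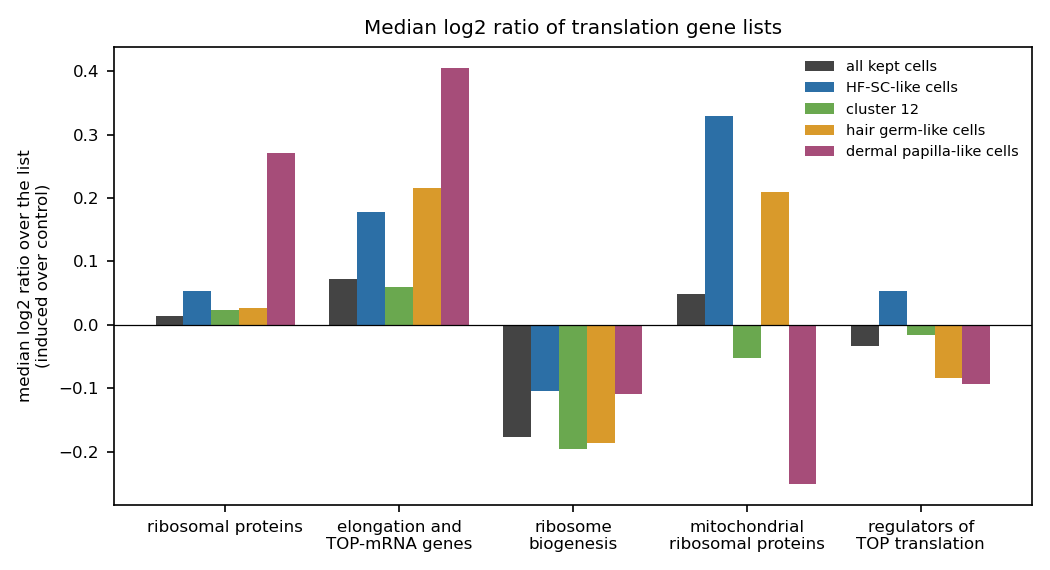
Median log2 ratio, induced over control, of the members and of 4 translation gene lists in 5 populations, scaled to total UMIs. Ribosome biogenesis lies below 0 in these 5 populations (above 0 in hair germ-like cells when CPM is averaged over cells), while mitochondrial ribosomal proteins lie above 0 in HF-SC-like (0.33) and hair germ-like cells (0.21) and below 0 in dermal papilla-like cells (-0.25). With median-of-ratios scaling the members' bars for all kept cells and HF-SC-like cells change sign, as do those of the elongation and mitochondrial lists for all kept cells and of the regulators for HF-SC-like cells.

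Ribosome biogenesis genes, which make and process ribosomal RNA and assemble the subunits, mostly had ratios below 0. In all kept cells 1 of 30 had a ratio above 0 and 29 below (median -0.18), with the same split under median-of-ratios scaling and when CPM was averaged over cells, and 3 above and 27 below among cells under 5% mitochondrial UMIs. In cluster 12 it was 5 above and 24 below of 29 (median -0.20), and in HF-SC-like cells 9 above and 21 below of 30 (median -0.10). The lowest in all kept cells were Rrp12 (14.7 and 10.2 CPM, -0.53) and Ltv1, a small-subunit assembly factor (37.9 and 30.2 CPM, -0.33), and the 1 above 0 was Polr1c (23.8 and 27.8 CPM, 0.23). Rrp12 was the 1 of 30 called lower there, and 0 were called higher (background 3.74% lower and 18.4% higher of 14484 genes). The 1 lower call was near the background share. The direction was not shared by every population, since the list's median was 0.056 in fibroblast-like, 0.10 in antigen-presenting-like and 0.014 in inner bulge-like cells. In hair germ-like cells 8 were above and 16 below 0, but 13 above and 11 below when CPM was averaged over cells.

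Mitochondrial ribosomal proteins, which serve the separate ribosome inside mitochondria, differed by population. In HF-SC-like cells 64 of 76 had a ratio above 0 and 12 below (median 0.33), and 19 of the 76 were called higher and 0 lower (background 17.3% and 8.83%). Under median-of-ratios scaling 58 were above and 18 below. In cluster 12 the split was 30 and 35. In all kept cells it was 52 above and 26 below, and 29 above and 49 below under that scaling. Among regulators of TOP translation, Rheb, the activator of mTOR, stood at 326 and 186 CPM in HF-SC-like cells (1139 and 643 UMIs, -0.81, -0.96 to -0.67) and at 276 and 197 CPM in cluster 12 (-0.49, -0.75 to -0.22). Myc, which drives ribosomal gene transcription, was at 450 and 556 CPM in HF-SC-like cells (0.31, 0.21 to 0.40) and at 324 and 420 CPM in cluster 12 (0.37, 0.16 to 0.59). The repressor gene Eif4ebp1 was at 79.8 and 58.4 CPM in all kept cells (-0.45, -0.52 to -0.38). Of the 15 regulators tested in HF-SC-like cells 10 had a ratio above 0 and 5 below, and 0 were called higher and 2 lower (background 17.3% and 8.83%).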

How the data were processed

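The deposited values were UMI counts per gene and cell, made by the authors with Cell Ranger against mm10 per the submitters' processing notes (the matrix headers give software version 3.0.1). Cells with more than 200 and fewer than 5000 genes and under 10% mitochondrial UMIs were kept, 86.6% of 4545 control and 85.1% of 4264 induced barcodes. Total UMIs per library were 50565114 and 45364442. Automatic doublet calling by Scrublet in Scanpy 1.11.5 marked 4 and 5 cells and was not relied on, so doublets stayed in and leaving out the 165 and 145 highest-scoring cells was an alternative. Clustering used Seurat 5.3.0 in R 4.3.3 (2000 variable genes, 30 dimensions, resolution 0.8), and cell types were named from marker lists. Counts were summed per library and population with Python 3.11.15 and SciPy 1.17.1. Log2 ratios used UMIs plus 0.5 scaled to total UMIs, for genes with at least 20 UMIs. With 1 library per group no test was run. Shares have exact Clopper-Pearson intervals and ratios exact conditional binomial intervals, which cover counting error only. Named genes were the 5 highest and 5 lowest ratios with at least 200 UMIs in each main population (all kept cells, HF-SC-like cells, cluster 12), the 5 most and least abundant, the 5 widest and narrowest pool ranges, paralogs, and members with known roles of their own. Those given for dermal papilla-like cells, the list genes and the genes recurring over clusters were chosen after their values were seen. The members and lists were chosen with earlier results of these data known. Coding lengths, 3′ untranslated regions and paralog identities came from GENCODE M1 transcripts, and the printed sequences from RefSeq (GRCm38.p6). Calculations were tested on simulated data. The gene Rps4l and miR-205 itself were not analysed here, and some genes that the naming rule took are not reported here.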

Additional observations from a re-analysis of the deposited data

Results flagged for a closer look

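Clusters with at least 20 cells in each library were singled out where the log2 ratio of the ribosomal protein share, induced over control, was at least 0.1 in either direction. Cluster 19 (HF-SC-like) stood at -0.14, on the other side of 0 from the rest. The others were dermal papilla-like cells at 0.29, melanocyte-like cells at 0.26, sebaceous gland-like clusters 22 and 17 at 0.23 and 0.11, cluster 20 at 0.17, antigen-presenting-like cells at 0.15, fibroblast-like cells at 0.13 and cycling-like cells at 0.12. With 1 library per group, the difference between these clusters was not tested.

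Pseudogene rows lay outside the symbol rule. Rpl10-ps3 had 6583 UMIs in the control and 8462 in the induced library, a log2 ratio of 0.52, and Rpl36a-ps1 had 824 and 943 UMIs, a ratio of 0.35. Rpl10-ps3 made up 5.95% of the UMIs of its pair with Rpl10.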

How the results depend on the processing

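No paired analysis was possible because each group had 1 library. The log2 ratio of the share in all kept cells (0.0087) was 0.026 under 5% mitochondrial UMIs, 0.010 in cells of at least 5000 UMIs, -0.032 as a mean over cells, 0.0073 without the 5 most abundant members and 0.00047 without cell filters. In HF-SC-like cells (0.044) it was 0.031 under 5% mitochondrial UMIs and 0.050 as a mean over cells. In cluster 12 (0.019) it was 0.045, 0.00041 as a mean over cells and 0.029 in cells of at least 5000 UMIs. The member median in all kept cells (0.014) was -0.085 with median-of-ratios scaling, 0.033 under 5% mitochondrial UMIs and -0.025 as mean CPM, and in HF-SC-like cells (0.053) -0.037 with median-of-ratios scaling. In HF-SC-like cells 1 member was called higher when 1 UMI sufficed, and 1 lower at a ratio of 0.25, as in cluster 12, against 0. The highest over the lowest cluster share (control 2.78) was 2.82 without mitochondrial UMIs, 2.44 under 5% and 3.07 as a median over cells, and in the induced library (2.90) 2.27 under 5%, 2.56 in cells of at least 5000 UMIs and 3.03 as a median over cells. Pyrimidine runs within 20 bases occurred in 80.3% of members and 53.3% of all genes, and runs of at least 6 in 14.1% of all genes. The cluster spreads under these cell filters covered fewer clusters. Under 5% mitochondrial UMIs 15 control and 18 induced clusters were compared, against 24 and 25, with cluster 11 highest instead of cluster 16. In induced cells of at least 5000 UMIs 23 clusters were compared, and the lowest was cluster 10 instead of cluster 23. Apart from these sets of clusters and the stricter motif of at least 6 pyrimidines, the cause was not tested. Of the other values, 108 for the main comparisons stayed within their counting interval or 1.5 times the count. For single members and the shares of further populations 310 did so and 97 moved by more, none with a called value changing sign.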

Other observations

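Rpl27-ps3, a further pseudogene row, had 930 UMIs in the control and 523 in the induced library (log2 ratio -0.67). The 9 pseudogene rows together held 10994 and 12222 UMIs, or 0.0217% and 0.0269% of all UMIs.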
